A study of Mus musculus with 12 samples.

Results

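The genes described here are 10 matrix remodelling genes other than collagens, *Postn*, *Fn1*, *Lox*, *Sparc*, *Tnc*, *Thbs1*, *Timp1*, *Mmp2*, *Mmp14* and *Tgfb1*. They were chosen by symbol from the 55885 genes listed for the cardiac tissues of 12 mice. RNA was sequenced from 3 hearts in each of 4 groups, and all mice were male, 8 weeks old and of the strain C57BL/6 per the labels (C57BL/6J in the methods). Saline mice were wild type and received no cisplatin, and CDDP mice were wild type and received cisplatin at 6 mg/kg by intraperitoneal injection on days 1, 8 and 15. STING-/- mice lacked *Tmem173* (also named *Sting1*), which encodes the adaptor STING, and received no cisplatin, and STING-/-+CDDP mice had the same deletion and the same injections as CDDP mice. The sample labels call the mice without cisplatin untreated, while the methods describe a saline group. Hearts were collected on day 22. The knockout is constitutive, so STING was missing from every cell type of the mouse and not from the heart alone, and the part of the heart that was taken was not stated.

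The extracellular matrix of the heart is a network of fibres and proteoglycans that holds cardiomyocytes and vessels in place, and it is made mainly by cardiac fibroblasts. Structural and matricellular proteins such as fibronectin, SPARC and periostin are laid down with collagen, lysyl oxidase links the fibres, metalloproteinases cut them, and tissue inhibitors of metalloproteinases restrain the cutting. TGF-beta is the best known signal that raises the production of many of these proteins in injured hearts. Cisplatin is an anticancer drug that binds DNA and can harm the heart, and STING is the adaptor that relays the signal when the sensor cGAS binds DNA in the cytosol. The comparisons asked how cisplatin changed these genes in wild-type hearts and whether the change differed in hearts without STING.

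The values are TPM (transcripts per 1000000), in which the reads on a gene are divided by its length and every heart is scaled to the same sum, so that levels can be compared between genes. Depth is unknown because TPM keep no read counts. Fold changes are differences of log2(TPM + 1), which understate the change of genes with low TPM, and they were tested with limma over 13815 genes in a single model of the 12 hearts. A gene passed the test when its adjusted p was under 0.05. *Tnc* was too low to enter the model and was compared by an exact permutation test, in which the smallest two-sided p for 3 hearts against 3 is 0.1. In tissue RNA, fewer cells of a type and less RNA per cell cannot be told apart.

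Hearts within a group differed in the levels of genes used as tissue markers. A difference in the tissue taken and a change of expression within it cannot be told apart here. The summed TPM of 5 atrial genes ranged from 310.0 to 39100 over the 12 hearts, and that of 8 genes of tendon, cartilage and valve tissue from 21.9 to 376. CDDP heart 1 had a summed TPM of 1100 for 6 neutrophil genes, against 4.6 to 89.7 in the other hearts, and of 203 for 9 platelet genes, against 28.2 to 94.9. *Sting1* had a TPM of 2.87 to 5.96 in the hearts of STING-/- mice with and without cisplatin and of 5.62 to 22.1 in wild-type hearts, so its transcript was still listed in the knockout and the ranges overlapped. Ventricular cardiomyocyte genes were high in all 12 hearts, with a summed TPM of 25900 to 51400 over 8 genes, as the label heart implies.

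With CDDP, the wild-type heart had less *Sparc* and *Postn* and more *Lox* and *Timp1*. In CDDP against Saline, 4 of the 9 members tested passed, 2 higher and 2 lower, while 18.9% of all tested genes passed, 8.52% higher and 10.4% lower. The median log2 fold change was -0.28 over the 9 members and 0 over all tested genes. The groups did not overlap for 4 of 10 members (*Sparc*, *Lox*, *Timp1* and *Tnc*), and they did not overlap for 32.0% of all tested genes. The members thus did not move in a single direction.

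**Figure D1:**
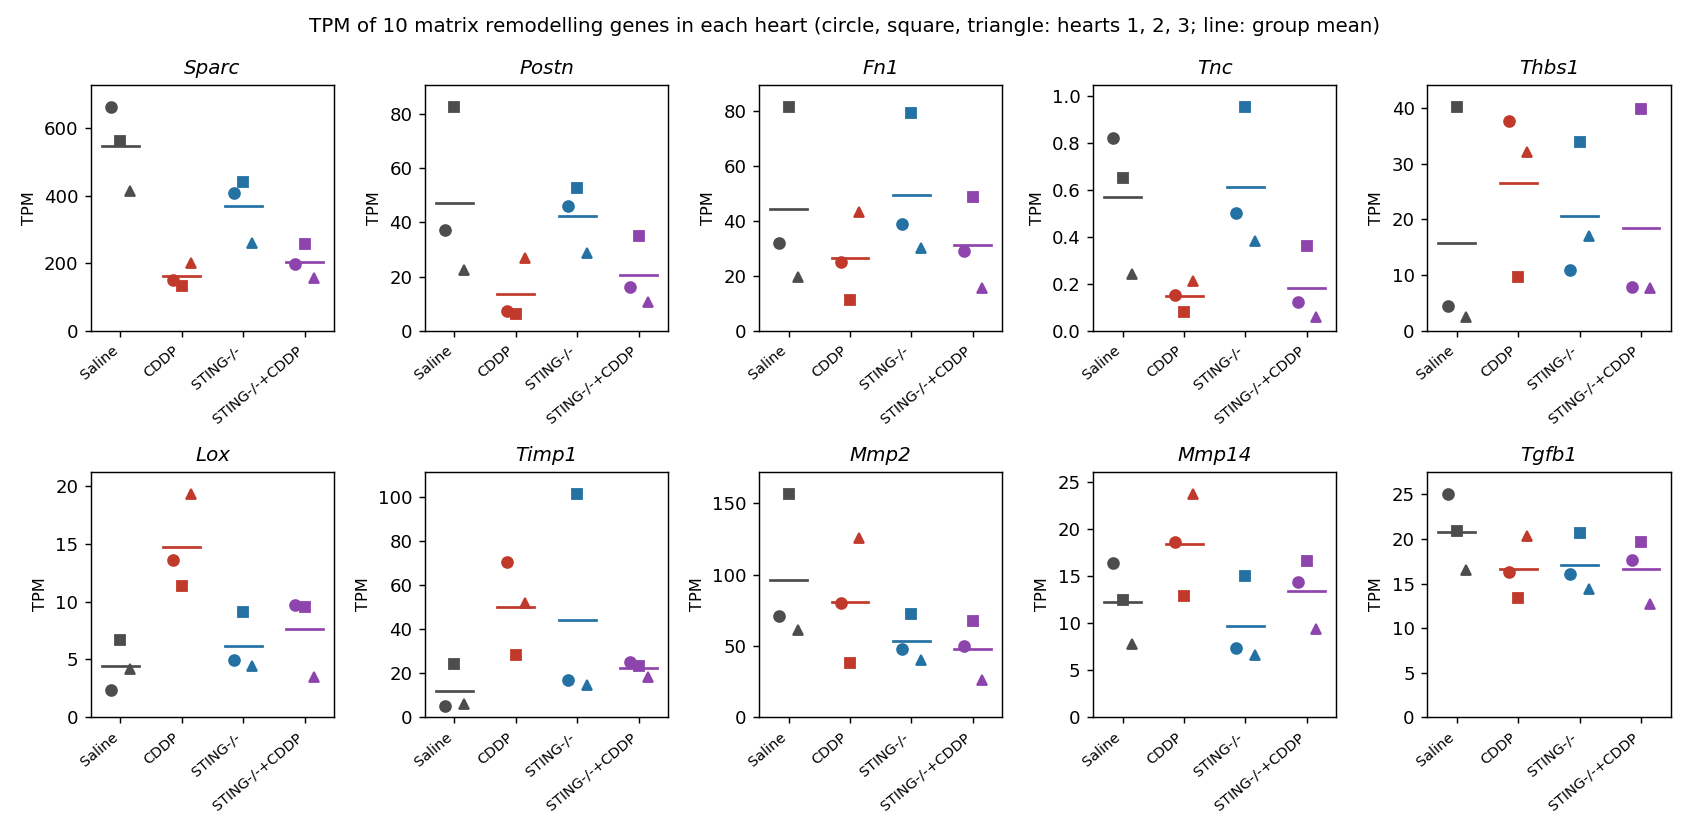
TPM of each of the 10 genes (vertical axis, linear, a scale of its own in each panel) in each heart of the 4 groups (horizontal axis). Circles, squares and triangles are hearts 1, 2 and 3, and lines are group means. All 3 CDDP hearts lie below all 3 Saline hearts for Sparc and Tnc and above them for Lox and Timp1.

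The sequences upstream of *Postn* and *Timp1* are shown because these genes passed the test in opposite directions with CDDP. Each is the 250 bases before the RefSeq start site on GRCm38.p6, read in the direction of the gene, and neither overlaps an annotated exon. *Postn* has 2 such windows, and the one shown is followed by bases of an annotated transcript. Capitals in the *Postn* sequence (chr3:54360857-54361106, plus strand) mark a TATA box, TATAAA, whose first base is at -26 from the start. Capitals in the *Timp1* sequence (chrX:20869916-20870165, plus strand) mark the letters GGAATG, bound by TEAD factors, whose first base is at -247.
Postn: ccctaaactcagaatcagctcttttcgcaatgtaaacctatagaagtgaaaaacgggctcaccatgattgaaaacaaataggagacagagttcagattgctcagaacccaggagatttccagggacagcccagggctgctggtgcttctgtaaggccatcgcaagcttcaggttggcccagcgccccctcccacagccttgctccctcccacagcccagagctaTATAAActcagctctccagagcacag
Timp1: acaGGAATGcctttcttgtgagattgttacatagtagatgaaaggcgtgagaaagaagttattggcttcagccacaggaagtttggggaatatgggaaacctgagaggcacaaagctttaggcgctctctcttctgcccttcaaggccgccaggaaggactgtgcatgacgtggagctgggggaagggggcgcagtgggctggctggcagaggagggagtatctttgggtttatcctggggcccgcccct
Both strands were searched. The letters were TGANTCA for the AP-1 motif and CAGACA for the SMAD motif. Those of the TEAD motif and of the box named above were searched as printed there, and the CArG box and NF-kB motifs were searched by their degenerate letters. Of all 32851 promoter windows of this length, the TATA box was in 12.4%, the TEAD motif in 12.6%, the SMAD motif in 17.1%, the AP-1 motif in 6.75%, a CArG box in 1.47% and an NF-kB motif in 5.93%. RefSeq windows were at hand for 6 of the 10 members, *Postn*, *Sparc*, *Tnc*, *Timp1*, *Mmp14* and *Tgfb1*. The SMAD motif was in a window of *Sparc*, at -36, and of *Tnc*, at -71. *Tnc* also had the letters TATAAA. These are the same bases in its overlapping windows, at -126 from one start site and at -205 from the other. An NF-kB motif was in the window of *Tgfb1*, at -140, and the AP-1 and CArG motifs were in none. Such matches are descriptions of the letters and not of binding.

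*Sparc* encodes a matricellular protein that binds collagen and guides its assembly, and it lies on chromosome 11 of GRCm38 from 55394500 to 55423183. It was the most abundant member, with a mean of 320.0 TPM over the 12 hearts and rank 331 of all genes listed. Saline hearts 1 to 3 had 663, 564 and 414 TPM, and CDDP hearts 1 to 3 had 151, 132 and 199 TPM. No CDDP heart reached the lowest Saline heart, and the mean was 3.4-fold lower. On the log2 scale the change was -1.75 with a standard error of 0.26 and an adjusted p of 0.00159 by limma, the smallest among the members. This fall passed the test in 8 of 8 other settings of the analysis and in 12 of 12 fits with a heart left out.

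*Postn* encodes periostin, a matricellular protein that activated fibroblasts secrete in injured hearts (chromosome 3, 54361109 to 54391037). The Saline hearts had 37.3, 82.6 and 22.2 TPM, and the CDDP hearts 7.34, 6.01 and 26.8 TPM. CDDP heart 3 was above Saline heart 3, so the groups overlapped, while CDDP hearts 1 and 2 were below every Saline heart. Its log2 fold change of -1.84 ± 0.59 (SE) had an adjusted p of 0.049 by limma. This call was close to the threshold: it was kept in 3 of 12 fits with a heart left out and in 4 of 8 other settings, and the adjusted p ran up to 0.138. Without CDDP heart 3 the log2 fold change was -2.46 (adjusted p = 0.0155), and without CDDP heart 2 it was -1.47 (adjusted p = 0.138).

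*Tnc* encodes tenascin-C, a matricellular protein of injured and remodelling tissue that healthy adult heart makes little of (chromosome 4, 63959785 to 64047015). It was under 1 TPM in all 12 hearts. In TPM, the Saline hearts had 0.82, 0.65 and 0.24, and the CDDP hearts 0.15, 0.08 and 0.21. The ranges did not overlap, and the exact permutation test gave a two-sided p of 0.1, the smallest it allows. Depth sets how well such a low level can be measured, and it is unknown here.

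*Fn1*, for the adhesive fibre protein fibronectin (chromosome 1, 71585520 to 71653200), overlapped between the groups. Saline hearts had 31.9, 81.2 and 19.6 TPM, and CDDP hearts had 25.1, 11.2 and 43.0 TPM. Its log2 fold change was -0.66 ± 0.60 (SE), with an adjusted p of 0.476 by limma.

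*Thbs1* encodes thrombospondin-1, a matricellular protein that platelets also store and that can activate latent TGF-beta (chromosome 2, 118111876 to 118127133). It varied most among the Saline hearts, with a TPM of 4.39, 40.2 and 2.52, a 15.9-fold range. The CDDP hearts had 37.7, 9.58 and 32.2 TPM. Saline heart 2 was above every CDDP heart, while the other Saline hearts were below them all. The log2 fold change was 1.37 ± 0.90 (SE) with an adjusted p of 0.312 by limma, and without Saline heart 2 it was 2.45 with an adjusted p of 0.0405. Saline heart 2 also had the highest atrial and tendon, cartilage and valve sums of the 12 hearts, and the part of such tissue in the level of *Thbs1* was not tested.

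*Lox* encodes lysyl oxidase, the enzyme that starts the crosslinking of collagen and elastin (chromosome 18, 52516067 to 52529867). Levels were low in the Saline hearts, at 2.34, 6.7 and 4.22 TPM, and higher in the CDDP hearts, at 13.6, 11.3 and 19.3 TPM. All CDDP hearts exceeded the highest Saline heart, and the mean was 3.33-fold higher. The fitted change was 1.59 ± 0.40 (SE) on the log2 scale, with an adjusted p of 0.0181 by limma. *Lox* passed in 8 of 8 other settings and in 10 of 12 fits with a heart left out. The adjusted p was 0.0775 without Saline heart 1 and 0.0586 without CDDP heart 3.

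*Timp1* encodes a secreted inhibitor of matrix metalloproteinases (chromosome X, 20870166 to 20874735). It was at 5.29, 24.3 and 5.94 TPM in Saline hearts 1 to 3 and at 70.7, 28.4 and 51.9 TPM in CDDP hearts 1 to 3. The groups did not overlap, and the mean was 4.24-fold higher with CDDP, the widest ratio of means among the rising members. A log2 fold change of 2.22 ± 0.69 (SE) was fitted, with an adjusted p of 0.0441 by limma. The call was kept in 4 of 12 fits with a heart left out and in 6 of 8 other settings, with an adjusted p of up to 0.149 when Saline heart 1 was left out. CDDP heart 1, the highest for *Timp1*, was also the heart with the high neutrophil and platelet sums; without it the log2 fold change was 1.93 and the adjusted p 0.12. *Timp1* lies inside *Syn1* on the opposite strand, and *Syn1* was at 0.07 to 0.3 TPM. Genes on the opposite strand of *Fn1*, *Tnc* and *Thbs1* were at 0.09 TPM or less, and an antisense gene is also annotated at *Lox*.

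*Mmp2* and *Mmp14* encode a secreted gelatinase and the membrane-bound protease that activates it. *Mmp2* (chromosome 8, 92827291 to 92853420) was at 70.8, 156 and 61.5 TPM with Saline and at 80.0, 37.8 and 126 TPM with CDDP. *Mmp14* (chromosome 14, 54431612 to 54445364) was at 16.4, 12.4 and 7.78 TPM with Saline and at 18.7, 12.8 and 23.7 TPM with CDDP. Both genes overlapped between the groups. For *Mmp2* the log2 fold change was -0.28 ± 0.48 (SE, adjusted p = 0.73 by limma). It was 0.57 ± 0.34 (SE) for *Mmp14* (adjusted p = 0.272 by limma).

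*Tgfb1*, for the growth factor TGF-beta 1 (chromosome 7, 25687002 to 25705077), was the steadiest member. It was at 25.0, 20.9 and 16.5 TPM with Saline and at 16.2, 13.4 and 20.3 TPM with CDDP. The ranges overlapped, and the log2 fold change was -0.31 ± 0.22 (SE) with an adjusted p of 0.36 by limma. Within each of the 4 groups its highest heart was 1.44- to 1.54-fold above its lowest. For the other members this range within a group ran from 1.39-fold (*Timp1*, STING-/-+CDDP) to 15.9-fold (*Thbs1*, Saline).

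**Figure D2:**
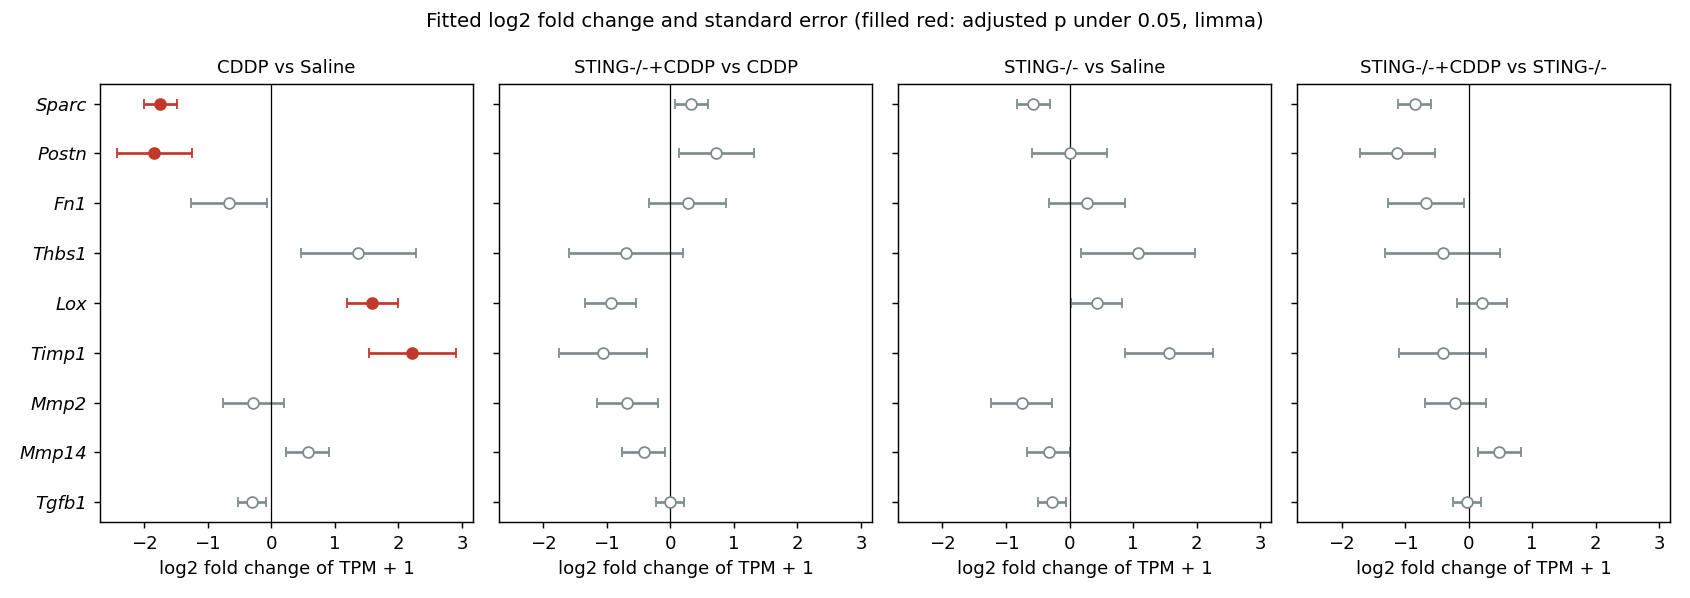
Fitted log2 fold change of TPM + 1 (horizontal axis) of the 9 tested genes (vertical axis) in the 4 pairwise comparisons, with standard errors as bars. Filled red points have an adjusted p under 0.05 by limma, and they are Sparc, Postn, Lox and Timp1 in CDDP vs Saline.

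Over the 12 hearts, *Sparc* had the highest mean of the members, and its levels of 132 to 663 TPM overlapped those of *Mmp2*, which had 26.2 to 156 TPM and a mean of 69.8 TPM. *Fn1* (37.7), *Timp1* (32.2) and *Postn* (30.9) had close means whose ranges over hearts overlapped, as did those of *Thbs1* (20.3), *Tgfb1* (17.8) and *Mmp14* (13.4). *Lox* had a mean of 8.23 TPM and *Tnc* of 0.377, at rank 15231 of all genes listed.

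Between cisplatin-treated hearts without and with STING, no member passed the test. In STING-/-+CDDP against CDDP, 0 of the 9 tested members passed by limma, against 1.22% of all tested genes. An unadjusted p under 0.05 was found for 1 member (*Lox*) and for 2737 of all 13815 tested genes. The median log2 fold change was -0.42 over the members and -0.09 over all tested genes. *Lox* had 9.73, 9.54 and 3.53 TPM in the STING-/-+CDDP hearts, all below the 3 CDDP hearts (log2 fold change -0.94 ± 0.40 SE, adjusted p = 0.217 by limma). *Timp1* had 25.3, 23.3 and 18.2 TPM, again all below the 3 CDDP hearts (log2 fold change -1.06 ± 0.69 SE, adjusted p = 0.42 by limma). The groups thus did not overlap for 2 of 10 members, a share near the 22.7% of all tested genes. This comparison shares the CDDP hearts with CDDP against Saline, so high values in these hearts enter both comparisons with opposite signs.

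For the members that were low with CDDP, the STING-/-+CDDP hearts overlapped the CDDP hearts. *Sparc* had 198, 259 and 156 TPM in the STING-/-+CDDP hearts, set against 151, 132 and 199 TPM in the CDDP hearts (log2 fold change 0.33 ± 0.26 SE, adjusted p = 0.506 by limma). *Postn* had 16.3, 34.9 and 10.7 TPM (log2 fold change 0.72 ± 0.59 SE, adjusted p = 0.534 by limma). *Tnc* had 0.12, 0.36 and 0.06 TPM (exact permutation p = 0.9). The other members overlapped between the groups too. *Fn1* had 28.9, 48.7 and 15.4 TPM, *Thbs1* had 7.88, 39.9 and 7.66 TPM, and *Mmp2* had 50.3, 67.8 and 26.2 TPM in the STING-/-+CDDP hearts. *Mmp14* had 14.3, 16.6 and 9.4 TPM and *Tgfb1* had 17.6, 19.7 and 12.8 TPM. Their log2 fold changes ran from -0.70 for *Thbs1* to 0.27 for *Fn1*.

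Within STING-/- mice, no member passed the test for cisplatin. In STING-/-+CDDP against STING-/-, 0 of 9 tested members passed by limma, against 0.934% of all tested genes. An unadjusted p under 0.05 was found for 1 member (*Sparc*) and for 1860 of all 13815 tested genes. *Sparc* had 407, 440 and 261 TPM in the STING-/- hearts, all above the STING-/-+CDDP hearts (log2 fold change -0.85 ± 0.26 SE, adjusted p = 0.158 by limma). *Tnc* had 0.5, 0.95 and 0.38 TPM in the STING-/- hearts, again all above (exact permutation p = 0.1). Groups that did not overlap were thus found for 2 of 10 members, a share near the 24.2% of all tested genes. *Postn* had 45.9, 52.6 and 28.7 TPM in the STING-/- hearts, and STING-/-+CDDP heart 2 reached into this range (log2 fold change -1.12 ± 0.59 SE, adjusted p = 0.442 by limma). The median log2 fold change was -0.41 over the members and -0.11 over all tested genes.

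*Lox* and *Timp1*, which rose with CDDP in wild-type hearts, did not pass the test for cisplatin in STING-/- mice. *Lox* had 4.94, 9.14 and 4.47 TPM in the STING-/- hearts (log2 fold change with cisplatin 0.21 ± 0.40 SE, adjusted p = 0.859 by limma). *Timp1* had 17.0, 101 and 14.6 TPM in the STING-/- hearts (log2 fold change with cisplatin -0.41 ± 0.69 SE, adjusted p = 0.837 by limma). STING-/- heart 2 was thus the highest of the 12 hearts for *Timp1*, and without it the change turned to 0.46. Whether the effect of cisplatin differed between the genotypes was tested by the interaction. No member passed (0 of 9 by limma, against 0.00724% of all tested genes). An unadjusted p under 0.05 by limma was found for 1615 of all 13815 tested genes and for 3 members. These were *Timp1* (-2.63 ± 0.97 SE on the log2 scale, adjusted p = 0.372 by limma), *Lox* (-1.37 ± 0.56 SE, adjusted p = 0.391 by limma) and *Sparc* (0.91 ± 0.36 SE, adjusted p = 0.386 by limma). In each of the 3 the fitted change with cisplatin was smaller without STING, or of the other sign for *Timp1*, and that difference did not hold up after adjustment over all genes.

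No member passed the test between the genotypes without cisplatin. In STING-/- against Saline, 0 of 9 tested members passed by limma, against 0.0724% of all tested genes. Of all 13815 tested genes 510 had an unadjusted p under 0.05, among them the members *Sparc* and *Timp1*. Their log2 fold changes were -0.57 ± 0.26 (SE) for *Sparc* and 1.57 ± 0.69 (SE) for *Timp1*, each with an adjusted p of 1 by limma. None of the 10 members had groups that did not overlap, against 7.64% of all tested genes. The STING-/- hearts had 38.7, 79.2 and 30.03 TPM for *Fn1*, 10.8, 34.0 and 17.0 for *Thbs1* and 48.1, 72.5 and 40.2 for *Mmp2*. They had 7.34, 15.1 and 6.67 TPM for *Mmp14* and 16.0, 20.7 and 14.4 for *Tgfb1*. All of these overlapped the Saline hearts.

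*Timp1* was also set against *Mmp2* and against *Mmp14* within each heart, since a ratio of transcripts does not depend on how hearts are scaled. Such ratios do not measure how far either protease is inhibited. In Saline hearts *Mmp2* was 13.4-, 6.43- and 10.4-fold above *Timp1*, and in CDDP hearts 1.13-, 1.33- and 2.42-fold above it. The log2 difference of *Timp1* to *Mmp2* was -3.27 ± 0.54 (SD, n = 3) in Saline and -0.62 ± 0.58 in CDDP hearts. It was -0.83 ± 1.13 in STING-/- and -1.02 ± 0.51 in STING-/-+CDDP hearts. The Saline hearts lay below all hearts of the other groups, and the means differed by 2.64 in CDDP against Saline and by 2.44 in STING-/- against Saline, each with an exact permutation p of 0.1. STING-/-+CDDP hearts overlapped those of CDDP (exact permutation p = 0.4) and of STING-/- (exact permutation p = 0.8). *Timp1* was thus high relative to *Mmp2* in STING-/- hearts without cisplatin.

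The log2 difference of *Timp1* to *Mmp14* was -0.35 ± 1.30 (SD, n = 3) in Saline, 1.40 ± 0.45 in CDDP, 1.70 ± 0.91 in STING-/- and 0.75 ± 0.24 in STING-/-+CDDP hearts. In wild-type mice it was 1.75 higher with cisplatin, and in STING-/- mice it was 0.95 lower, shown as -0.95 in the direction of cisplatin. In both comparisons the groups did not overlap, and the exact permutation p was 0.1. STING-/- heart 2, the highest for *Timp1*, was at 2.75, against 1.21 and 1.13 in the other STING-/- hearts. The difference was 0.65 lower in STING-/-+CDDP than in CDDP hearts, or -0.65, again without overlap (exact permutation p = 0.1).

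**Figure D3:**
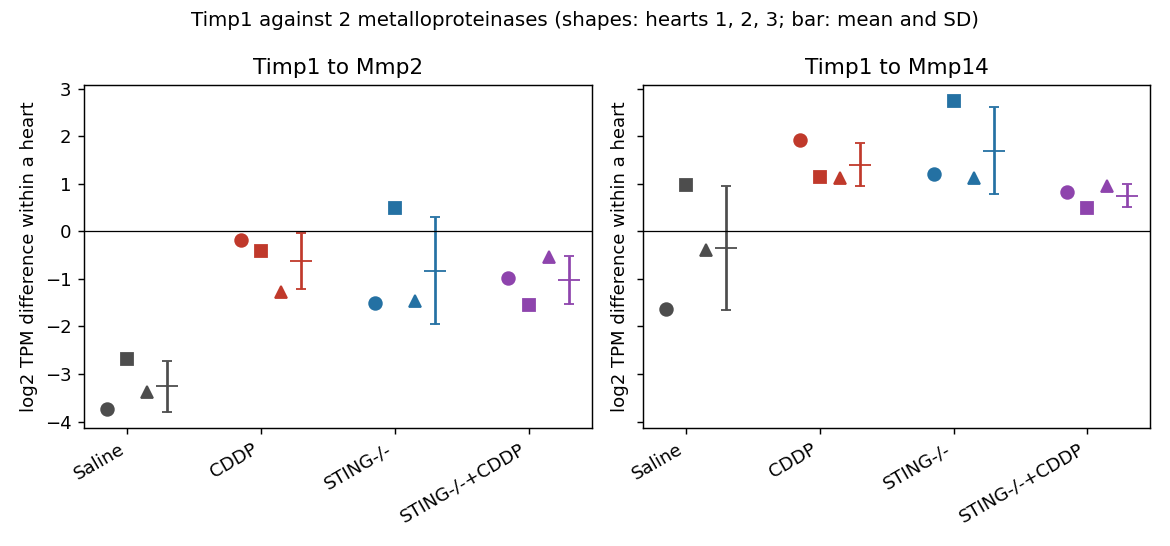
Log2 difference of the TPM of Timp1 to Mmp2 (left) and to Mmp14 (right) within each heart (vertical axis) in the 4 groups (horizontal axis). Circles, squares and triangles are hearts 1, 2 and 3, and bars are the mean and SD. On the left the 3 Saline hearts (mean -3.27) lie below the hearts of the other groups. On the right they (mean -0.35) lie below the CDDP and STING-/- hearts and overlap the STING-/-+CDDP hearts.

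The members varied together from heart to heart within groups. After the group means were removed, all 45 pairs of members were positively correlated over the 12 hearts, with a median r of 0.74 and a range from 0.40 (*Lox* with *Tnc*) to 0.98 (*Fn1* with *Mmp2*). This is a description, since the 12 hearts have 8 residual degrees of freedom and the values share the same scaling. The same correlations were not computed over all tested genes, so the values do not show a trait of the members alone. In each group a single heart was above its group mean for 10 of 10 members, namely Saline heart 2, CDDP heart 3, STING-/- heart 2 and STING-/-+CDDP heart 2. CDDP heart 2, STING-/- heart 3 and STING-/-+CDDP heart 3 were above their group mean for 0 of 10 members. The mean deviation of the high hearts was 0.50 to 0.72 on the log2 scale.

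The same 4 hearts had the highest sum of their group for the markers of fibroblasts, of smooth muscle and myofibroblasts, of tendon, cartilage and valve tissue and of adipocytes. The sum of 8 tendon, cartilage and valve genes was 376 in Saline heart 2 against 21.9 and 27.8 in the other Saline hearts, and 205 in CDDP heart 3 against 35.0 and 55.2 in the other CDDP hearts. It was 232 in STING-/- heart 2, against 125 and 139, and 205 in STING-/-+CDDP heart 2, against 141 and 70.6. The atrial sum was highest in the same heart in 3 of 4 groups. The part of these tissues in the levels of the members was not tested. Since the deviations were shared, members with opposite responses to cisplatin still rose and fell together within a group: *Lox* and *Sparc* had r = 0.49 within groups and r = -0.54 over the 12 hearts.

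**Figure D4:**
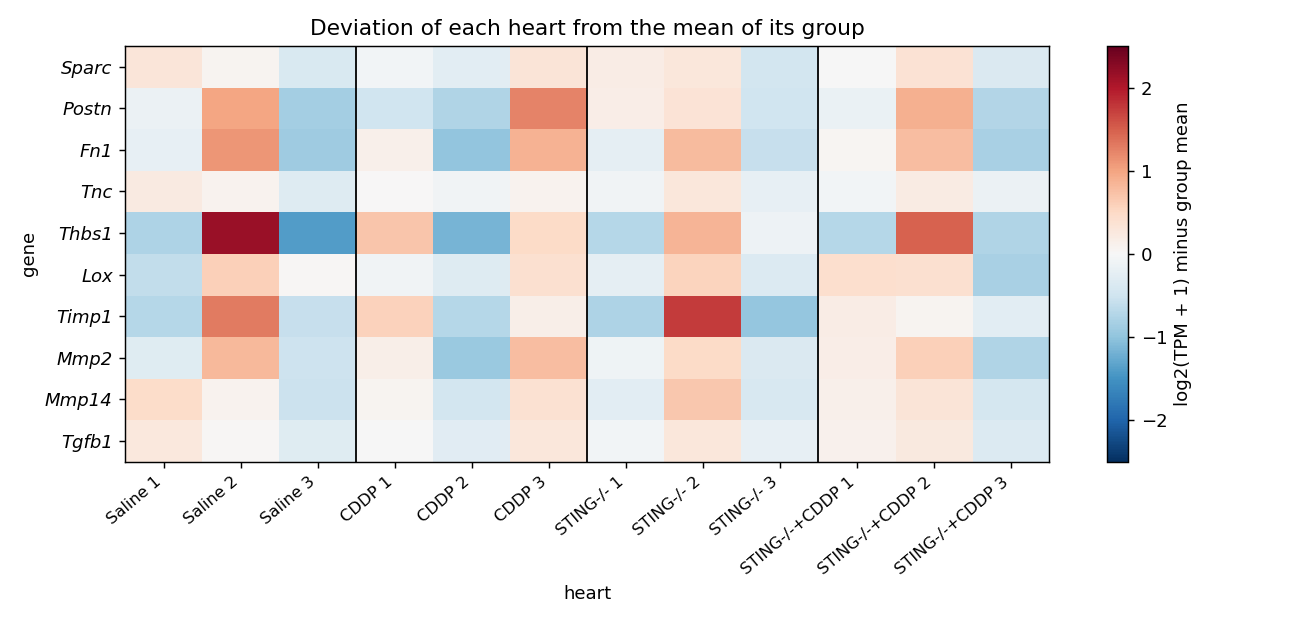
Deviation of log2(TPM + 1) from the group mean (colour, red above and blue below) of each of the 10 genes (rows) in each heart (columns), with lines between groups. Saline heart 2, CDDP heart 3, STING-/- heart 2 and STING-/-+CDDP heart 2 are above the mean for 10 of 10 genes.

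Part of the fibroblast markers was lower with CDDP as well. The summed TPM of 9 genes used as fibroblast markers (*Pdgfra*, *Tcf21*, *Ddr2*, *Dpt*, *Pi16*, *Cd248*, *Medag*, *Islr* and *Lamc1*) was 324, 588 and 312 with Saline and 163, 151 and 309 with CDDP, without overlap. Among them, *Lamc1* encodes a laminin chain that other cell types also make, and *Ddr2* is also in the list of matrix receptors. Genes of the matrix thus enter this marker list. Of the 9, 4 passed the test and were lower (*Pi16*, *Cd248*, *Islr* and *Lamc1*), against 10.4% of all tested genes. None of the 9 was at 0 in any group. STING-/- hearts had sums of 381, 428 and 295, and STING-/-+CDDP hearts had sums of 287, 333 and 169. In STING-/-+CDDP against CDDP the sums overlapped, and 1 of the 9 (*Cd248*) passed by limma and was higher, against 1.22% of all tested genes. Endothelial markers (4 of 6), pericyte markers (3 of 5) and macrophage markers (6 of 7) were lower with CDDP too, against the same 10.4%. Of the smooth muscle and myofibroblast markers 0 of 5 passed by limma. Red blood cell markers were lower in 5 of 5 (median log2 fold change -4.87), with sums of 4150 to 9320 TPM in the Saline hearts and 41.9 to 1270 TPM in the CDDP hearts. Their sums in the STING-/- hearts, 264 to 1470 TPM, were also below all Saline hearts, although 0 of 5 passed by limma (median -3.01). The part of these cells in the change of the members was not tested.

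The members were also set relative to the mean log2 level of the 9 fibroblast markers in the same heart, a comparison chosen after the data were seen. The marker mean was lower with CDDP, at -0.90, so by construction the subtraction adds the same amount to the difference of every gene, and the size and sign of the new values follow from it. In CDDP minus Saline, *Lox* was then at 2.49, *Timp1* at 3.12, *Mmp14* at 1.47 and *Sparc* at -0.85 on the log2 scale, without overlap between the groups (exact permutation p = 0.1 each). The other members overlapped, with *Thbs1* at 2.27, *Mmp2* at 0.62, *Tgfb1* at 0.59, *Tnc* at 0.46, *Fn1* at 0.24 and *Postn* at -0.94. Groups without overlap for 4 of 10 members compare with 60.3% of all tested genes after the same subtraction. In STING-/-+CDDP minus CDDP, where the marker mean differed by 0.38, *Lox* (-1.32), *Timp1* (-1.44), *Mmp2* (-1.06) and *Mmp14* (-0.80) were lower without overlap, each with an exact permutation p of 0.1. These were 4 of 10 members, against 23.3% of all tested genes. In STING-/-+CDDP minus STING-/-, *Lox* (0.64), *Mmp14* (0.91) and *Tgfb1* (0.39) were higher and *Sparc* (-0.42) lower without overlap. In STING-/- minus Saline, *Timp1* (1.66) was higher and *Mmp2* (-0.66) lower without overlap. Each of these had an exact permutation p of 0.1, and the other members overlapped. The share of all tested genes was not computed for these comparisons.

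**Figure D5:**
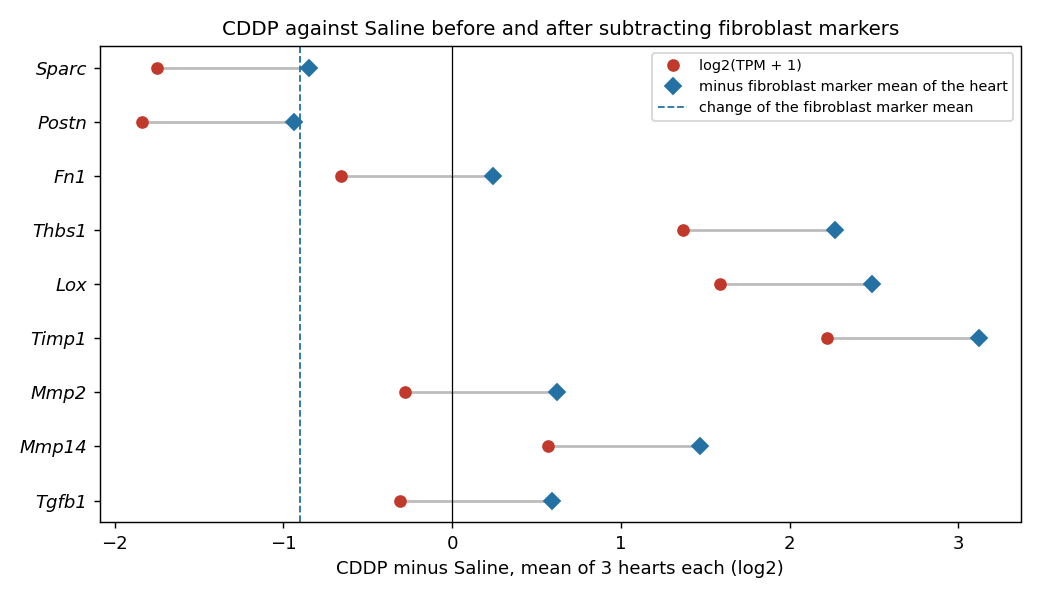
Difference of CDDP minus Saline (horizontal axis, log2, mean of 3 hearts each) for 9 genes (vertical axis) as log2(TPM + 1) (red circles) and after subtraction of the mean of 9 fibroblast markers of the heart (blue diamonds). The dashed line is the change of the marker mean itself, -0.90. Every gene moves to the right by the same amount, and Sparc and Postn stay below 0.

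Other genes of the matrix mostly fell with CDDP where they passed. Over 8 lists of 159 genes, of which 147 were tested, 4 were higher and 35 lower in CDDP against Saline (26.5% passed, against 18.9% of all tested genes). Collagens made up much of this: 11 of 12 tested were lower, with a median log2 fold change of -2.18, among them *Col3a1* (-3.85) and *Col15a1* (-3.47). Without the collagens 28 of 135 passed (20.7%), a total share near that of all tested genes. By direction 4 were higher and 24 lower, while of all tested genes 1177 were higher and 1433 lower. Side by side, the changes of *Sparc* and *Postn* had the sign of the collagens and those of *Lox* and *Timp1* the opposite sign.

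Among the partners of the members in fibre assembly and crosslinking, 7 of 23 tested were lower and 0 higher (30.4% passed, median -0.67). Of all tested genes 18.9% passed in this comparison, 10.4% lower and 8.52% higher. *Serpinh1*, the collagen chaperone, had a log2 fold change of -1.23 ± 0.25 (SE, adjusted p = 0.00771 by limma), and *Eln*, for elastin, of -1.68 ± 0.36 (SE, adjusted p = 0.00928 by limma). *Loxl2*, a relative of *Lox*, was among the 7 and was lower at -1.40 ± 0.32 (SE, adjusted p = 0.0122 by limma); it was named after its values were seen. Proteoglycans had 6 of 16 lower and 1 higher (median -0.84), led by *Gpc6* (-2.12) and *Aspn* (-1.73). Of 19 matricellular genes outside the members, 2 were lower and 0 higher (10.5%), a share near the 10.4% lower among all tested genes. They were *Sparcl1*, a close relative of *Sparc* (-1.87 ± 0.36 SE, adjusted p = 0.00554 by limma), and *Smoc2* (-1.34).

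Among matrix proteases, 4 of 26 were lower and 1 higher (median -0.31). The 19.2% that passed were near the 18.9% of all tested genes. *Ctsl*, a lysosomal cysteine protease, had a mean of 729 TPM with CDDP against 174 with Saline (log2 fold change 2.02). *Mmp15*, a membrane-bound relative of *Mmp14*, was at -2.26, and *Adam19* at -1.70. Of 7 protease inhibitors other than *Timp1*, 0 passed in either direction by limma (median 0.24). In the TGF-beta pathway 1 of 26 was lower and 0 higher (3.85% passed, below the share of all tested genes, median -0.07). It was *Ltbp4*, which stores latent TGF-beta in the matrix (-1.36, groups overlapping, named after its values were seen). Matrix receptors had 2 of 18 higher and 4 lower (33.3% passed). *Cd47*, a receptor of thrombospondin-1, was at 1.11 and the integrin *Itgb3* at 1.45, while *Itga9* (-1.72) and the collagen-binding *Itga11* (-1.12) were lower. The mean of *Itga11* was 0.143 TPM with CDDP against 1.48 with Saline, a low level in both groups.

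In the other comparisons these lists held few calls. In STING-/-+CDDP against CDDP 1 of 147 passed (0.68%, against 1.22% of all tested genes). It was *Adamts1*, a secreted protease that cleaves proteoglycans, at 11.1 ± 2.33 TPM against 35.5 ± 17.5 (SD, n = 3 each). Its log2 fold change was -1.50, with an adjusted p of 0.0452 by limma. No gene of the lists passed in this comparison with no filter, with only the groups compared or with the replicate block. In STING-/- against Saline, in STING-/-+CDDP against STING-/- and in the interaction, 0 of 147 passed by limma.

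The genes whose level over the 12 hearts was most like the mean of the members were *Rhbdf1* (r = 0.983), *Camkk1* (0.958), *Snx17* (0.950), *Arf4* (0.947) and *B4galt5* (0.942). Single members had other neighbours. *Postn* was most like *Mfap4* (0.983), *Col1a2* (0.981) and *Col5a2* (0.976), and *Lox* most like *Selenoo* (0.973), *Abcb1b* (0.962) and *Klhl2* (0.959). *Timp1* was most like *Adam8* (0.912), and *Sparc* was most like *Gm39214* and *Ppic* (0.972 each). These are Pearson correlations over 12 hearts chosen as the highest of all tested genes, given as a description.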

How the data were processed

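RNA-seq of cardiac tissues was deposited by the authors as TPM of each gene. The submitters' processing notes name fastp, HISAT and RSEM and the build GRCm38.p5; versions and the annotation release were not given in the sources used here. Columns summed to between 999999 and 1000001. Groups came from the genotype and treatment labels. Columns with the authors' group means were not used. Hearts that share a number are different animals.

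On the scale of log2(TPM + 1), limma 3.58.1 (R 4.3.3) fitted a single model of the 12 hearts to 13815 genes, those that reached 1 TPM in 3 or more hearts, with a trend in eBayes and 8 residual degrees of freedom. Tests were two-sided with Benjamini-Hochberg adjustment over all tested genes. The procedure was tested on simulated data. Single values were compared with exact permutation tests in scipy 1.17.1. Of the 55885 listed genes 55227 had an identifier in GENCODE M21 (GRCm38), the source of positions; promoter windows came from RefSeq on GRCm38.p6.

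The members, the gene lists and the tests were chosen with earlier results of these data known. All members are named, and of each list the 2 genes in each direction with the smallest adjusted p among those that passed without overlap of the groups. Counting was not stated to use strand.

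Alternatives were eBayes without a trend, a fit of only the groups compared, the replicate number as a block, a pseudocount of 0.1, no filter on low values, quantile normalization, scaling by the median of ratios or after mitochondrially encoded genes were removed, and each heart left out. Levels relative to fibroblast markers were added after the data were seen.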

Additional observations from a re-analysis of the deposited data

Results flagged for a closer look

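The log2 TPM difference of *Timp1* to *Mmp14* moved in opposite directions with cisplatin in the 2 genotypes. It was 1.75 in CDDP against Saline and -0.95 in STING-/-+CDDP against STING-/-, and in each comparison the hearts of the groups did not overlap. The difference between these effects was not tested. With a heart left out the values ranged from 1.11 to 2.41 and from -1.23 to -0.42. The gaps between the groups were narrow. The nearest hearts were at 1.13 (CDDP) against 0.97 (Saline), and at 0.95 (STING-/-+CDDP) against 1.13 (STING-/-). STING-/- heart 2 stood apart at 2.75.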

How the results depend on the processing

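Members that passed in CDDP against Saline numbered 4 (18.9% of all tested genes passed), 3 with the replicate block (15.7%) or without the eBayes trend (18.2%), 2 with no filter (7.52%) or with only the groups compared (5.95%), and 1 to 4 with a heart left out. The number was 1 without Saline heart 1 (8.98%) and 2 without CDDP heart 1, CDDP heart 3, STING-/- heart 1, STING-/-+CDDP heart 1 or STING-/-+CDDP heart 3. In the other comparisons and the interaction 0 members passed in any of these fits. For the pathway lists the number in CDDP against Saline was 39 (18.9% of all tested genes passed) and 24 with only the groups compared (5.95%). It was 53 with median of ratios (27.6%), 54 with quantile normalization (28.3%) and 26 to 45 with a heart left out. In STING-/-+CDDP against CDDP it was 1, where 168 of all 13815 tested genes passed. It was 0 with no filter (12 of 27721), only the groups compared (38) or the replicate block (67). With median of ratios or quantile normalization it was 5 (655 and 671 of all tested genes), and without mitochondrially encoded genes 2 (312). With a heart left out it was 2 without Saline heart 2 (214 of all tested genes) or CDDP heart 2 (388) and 0 without any other heart. In STING-/-+CDDP against STING-/- it was 0, where 129 of all tested genes passed. It was 2 with median of ratios (250), 4 with quantile normalization (297), 1 with only the groups compared (204) and 0 to 1 with a heart left out.

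Over all tested genes, deviations from the group mean had r from -0.333 to 0.261 between hearts of the same number (18 pairs). Hearts of different number had r from -0.312 to 0.431. For the members, the mean deviation was highest in heart 2 of Saline (0.72), STING-/- (0.63) and STING-/-+CDDP (0.54). It was lowest in heart 3 of these groups (-0.57, -0.41 and -0.54). In CDDP, heart 3 was highest (0.50) and heart 2 lowest (-0.59). Whether hearts of the same number share a batch was not tested. With the replicate number as a block *Postn* lost its call in CDDP against Saline (adjusted p = 0.0659 by limma), and the 3 other calls among the members were kept.

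The sign of small, untested or uncalled values changed as follows. With median of ratios, *Postn* in STING-/- against Saline was -0.00. *Tgfb1* in STING-/-+CDDP against STING-/- was 0.10 with median of ratios and 0.08 with quantile normalization. The interaction of *Fn1* was 0.11 with median of ratios, 0.03 without mitochondrially encoded genes and 0.12 with quantile normalization, and that of *Mmp14* was 0.03 and 0.07 with median of ratios and quantile normalization. Relative to fibroblast markers, a setting that by construction adds the same amount to every gene, CDDP against Saline was 0.24 for *Fn1*, 0.62 for *Mmp2* and 0.59 for *Tgfb1*. With a heart left out, the interaction ranged from -0.56 to 0.44 (*Fn1*), -0.39 to 0.46 (*Mmp2*) and -0.31 to 0.25 (*Mmp14*). *Mmp2* in CDDP against Saline ranged from -0.67 to 0.19. STING-/- against Saline ranged from -0.43 to 0.50 (*Postn*) and -0.17 to 0.83 (*Fn1*). STING-/-+CDDP against CDDP ranged from -0.23 to 0.70 (*Fn1*) and -0.14 to 0.17 (*Tgfb1*). STING-/-+CDDP against STING-/- ranged from -0.50 to 0.17 (*Mmp2*), -0.16 to 0.14 (*Tgfb1*), -1.16 to 0.01 (*Thbs1*), -0.90 to 0.46 (*Timp1*) and, for *Timp1* to *Mmp2*, -0.53 to 0.46. The cause was not tested.

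The scaling matters most for hearts of STING-/-+CDDP mice: the median log2 fold change of all tested genes was -0.095 against CDDP and 0.003 with median of ratios, and -0.107 and 0.007 against STING-/-. Of all genes that passed in STING-/-+CDDP against CDDP, 29.8% were higher, 42.1% with median of ratios and 46.8% with quantile normalization. Against STING-/- these shares were 27.1%, 50.8% and 55.9%. TPM keep no depth, so the error of low values such as those of *Tnc* is unknown.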
